A study of Mus musculus with 10 samples.

Results

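The NKG2 and CD94 receptors are C-type lectin-like proteins on the surface of natural killer (NK) cells and of some T cells, and their genes lie together in the natural killer gene complex. The 7 genes described here, Klrk1, Klrd1, Klrc1, Klrc2, Klre1, Klri1 and Klri2, were taken by their symbol: each was the only gene paired with 1 probe set of the array, which makes 7 of 19938 genes measured. They were read in 10 melanoma tumours of male mice, 1 array per tumour, of which 5 were labelled Exercise (arrays 300, 301, 306, 309 and 310) and 5 non-Exercise (arrays 326, 327, 329, 330 and 331). By its title the series is about voluntary exercise and NK cells entering tumours, and the comparison asks whether transcripts of these receptors differ with exercise. The sources used here give no strain, age, melanoma line or duration of exercise. Nothing in the labels says that each number is a separate animal, and the p-values therefore rest on the spread between tumours, whatever its origin.

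The family splits by partner and by signal. CD94, the product of Klrd1, pairs with NKG2A, the product of Klrc1, into an inhibitory receptor, and with NKG2C, the product of Klrc2, into an activating one; both bind Qa-1, a nonclassical class I molecule. NKG2D, the product of Klrk1, pairs with itself, signals through the adaptors DAP10 (Hcst) and DAP12 (Tyrobp), and binds stress-induced ligands of the Rae-1 and H60 families. The product of Klre1 pairs with those of Klri1, which is inhibitory, or Klri2, which is activating. On activated CD8 T cells NKG2D and CD94/NKG2A are also found.

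Levels are log2 values of a probe set after quantile normalization of the deposited table, whose array medians lay between 8.64 and 8.77 before it. They can be compared between arrays for 1 gene, and not between genes, whose probes differ in affinity. The number of arrays limits their precision. A change is the Exercise mean minus the non-Exercise mean, given ± its standard error (SE) and tested with limma across all genes; a gene rose or fell where the Benjamini-Hochberg adjusted p was under 0.05. Whole-tumour RNA cannot tell fewer cells of a type from less RNA per cell. The melanocytic genes checked against the tissue label, among them Mlana, Pmel, Tyrp1 and Dct, all 8 measured, had mean values at or above percentile 95.4 of the table, and none of the 8 passed the test.

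Exercise arrays 306, 309 and 310 stood apart in their transcripts of hepatocytes. The albumin gene Alb reached 12.28 to 12.97 there, against 6.84 to 9.22 in the remaining 7 arrays. Of 9 measured hepatocyte genes, 8 were higher in these 3 arrays than in all others, and the mean log2 level of the list was 9.40 to 10.02 in the 3, 7.38 to 7.52 in arrays 300 and 301, and 7.36 to 7.83 in the non-Exercise arrays. The levels of 4 of the 7 receptor genes (Klrk1, Klrd1, Klrc1 and Klrc2) were also higher in these 3 arrays than in all others, those of Klre1, Klri1 and Klri2 were not, and the part of hepatocyte transcripts in the results was not tested. Changes, counts and pair differences are therefore given over all arrays and without these 3. Genes of other tissues varied as well. The mean log2 level of the muscle list was 9.59, 7.69, 10.09, 10.52 and 7.76 in Exercise arrays 300, 301, 306, 309 and 310. It was 8.20 to 9.17 in the non-Exercise arrays. For the adipocyte list it was 9.23 in array 300 and 7.88 in array 301, and 7.99 to 9.10 in the non-Exercise arrays. The part of these tissues in the results was not tested.

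Of the 7 receptor genes, 2 rose in the Exercise arrays (Klrk1 and Klrd1), 0 fell and 5 did not pass. Over all genes, 6.35% rose, 10.6% fell and 17.0% passed in either direction. The median change of the 7 was 0.25, beside -0.02 over all genes, and 6 of the 7 changes were positive. For 0 of the 7 did all Exercise values lie above all non-Exercise values, which held for 3.74% of all genes, and for 0 of the 7 did all lie below, which held for 8.33%. Without arrays 306, 309 and 310, 0 of the 7 rose and 1 (Klrc2) fell, where 3.74% of all genes rose, 8.06% fell and 11.8% passed in either direction.

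**Figure D1:**
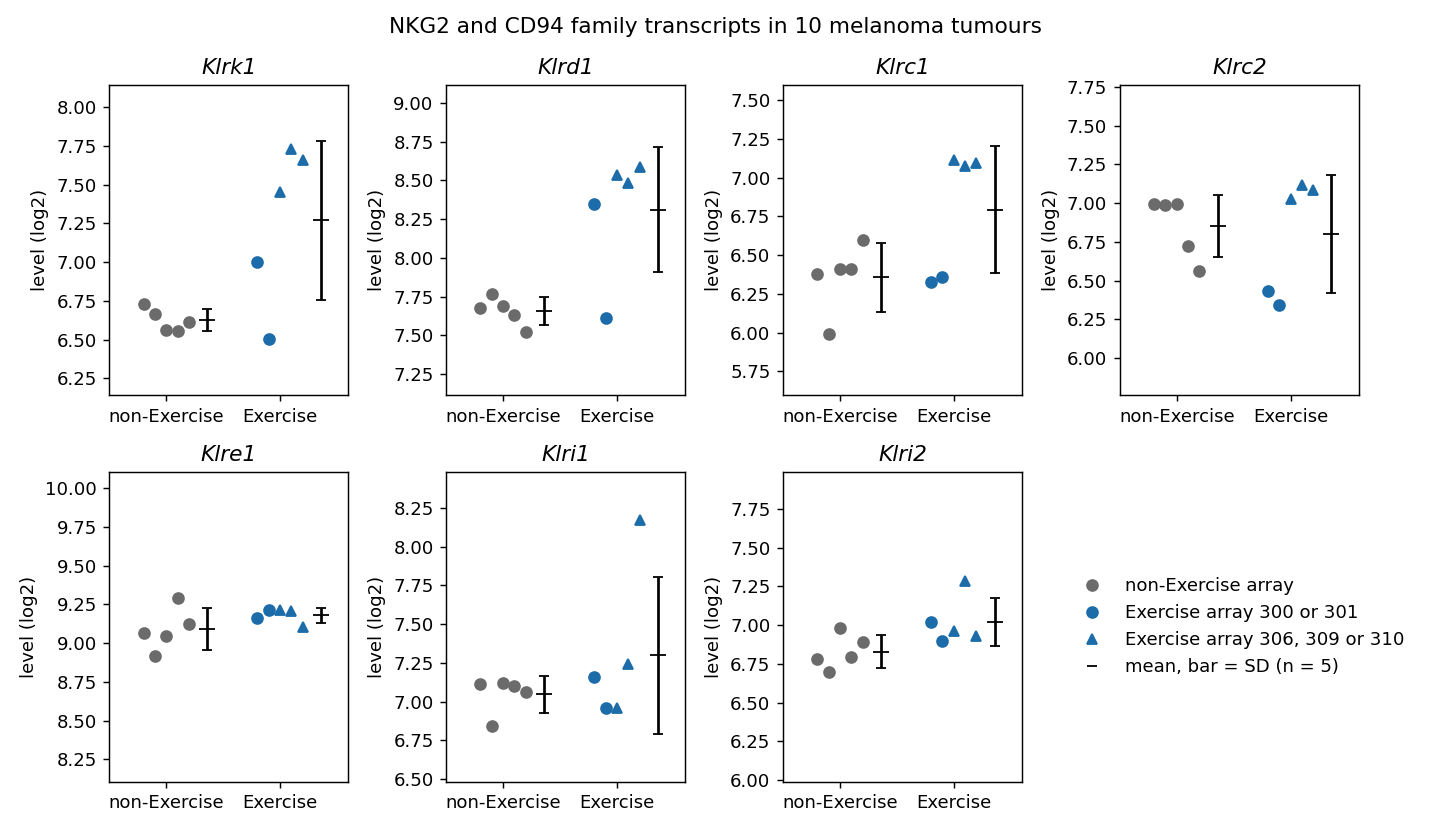
Levels (log2, vertical axes spanning 2 units each) of the 7 receptor genes in the 5 non-Exercise arrays (grey) and 5 Exercise arrays (blue), with the mean and SD beside the points; triangles are arrays 306, 309 and 310. In Klrk1, Klrd1, Klrc1 and Klrc2 the 3 triangles lie above all other arrays, while Klre1 stays between 8.92 and 9.29.

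Upstream sequence is shown for Klrk1, Klrc1 and Klrc2, 3 of the 4 receptor genes that were highest in the same 3 arrays. Of the 7 genes, 5 had RefSeq promoter entries, 7 entries in all; Klrd1 and Klri2 had none. The sequences are the 250 bases before the RefSeq start on build GRCm38.p6, 5′ to 3′ on the minus strand of chromosome 6, at chr6:129623865-129624114 for Klrk1, chr6:129678974-129679223 for Klrc1 and chr6:129660597-129660846 for the first of the 2 Klrc2 entries. Capitals mark TGTGGT, the core motif of RUNX factors, or its reverse complement.
Klrk1: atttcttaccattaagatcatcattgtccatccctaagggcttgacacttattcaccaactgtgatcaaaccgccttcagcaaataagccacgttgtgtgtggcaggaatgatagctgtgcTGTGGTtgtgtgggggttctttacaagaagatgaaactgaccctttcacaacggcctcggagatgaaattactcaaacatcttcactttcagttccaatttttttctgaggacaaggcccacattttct
Klrc1: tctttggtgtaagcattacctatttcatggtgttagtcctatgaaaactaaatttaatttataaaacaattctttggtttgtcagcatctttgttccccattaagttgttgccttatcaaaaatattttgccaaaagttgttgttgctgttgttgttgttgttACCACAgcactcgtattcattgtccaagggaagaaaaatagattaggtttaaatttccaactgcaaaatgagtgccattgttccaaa
Klrc2: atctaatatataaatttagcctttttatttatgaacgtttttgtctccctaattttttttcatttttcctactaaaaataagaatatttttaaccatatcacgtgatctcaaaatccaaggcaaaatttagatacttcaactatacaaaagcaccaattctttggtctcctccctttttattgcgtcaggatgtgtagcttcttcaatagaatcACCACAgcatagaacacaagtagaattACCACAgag

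The motif began 129 bases before the start in Klrk1, on the strand shown. In Klrc1 it lay on the other strand with its first printed base 87 bases before the start, and in Klrc2 on the other strand at 36 and 9 bases before it. Klre1 held it in 1 of its 2 entries and Klri1 in none. On either strand it was found in 14.0% of 32851 promoter windows of this length. The fixed strings GGTGTGA (for T-box factors), CGGAAG (for ETS factors) and TTCNNNGAA (for STAT factors) were also searched on both strands. They were in 0 of the 7 entries and in 3.33%, 13.6% and 7.02% of all windows. Shorter or other forms of these motifs were not searched, so the entries are not shown to lack them. The motifs were chosen after the sequences had been seen, and a match describes letters, not a bound site.

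Klrk1, the gene of the activating receptor NKG2D, was 1.56-fold higher in the Exercise arrays. Its level was 7.0, 6.50, 7.46, 7.73 and 7.66 in Exercise arrays 300, 301, 306, 309 and 310. In non-Exercise arrays 326, 327, 329, 330 and 331 it was 6.73, 6.66, 6.56, 6.56 and 6.61. The groups overlap through array 301 alone, which held the lowest level of all 10, while the other 4 exceeded every non-Exercise array. The means were 7.27 ± 0.51 and 6.62 ± 0.07 (SD, n = 5 each), so that the spread lay almost wholly in the Exercise group. The change of 0.65 ± 0.19 passed (95% interval 0.24 to 1.05, limma adjusted p = 0.0294; exact permutation p = 0.0476, two-sided, unadjusted, where all splits of the 10 arrays allow no less than 0.00794). Between arrays 309 and 310 the levels differed by less than the range of the non-Exercise arrays, 0.17, while 306 and 300 each lay further than that below the next higher array.

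The call of Klrk1 was lost without Exercise array 306, 309 or 310 and without any 1 of the 5 non-Exercise arrays, and kept without array 300 or 301 (limma adjusted p 0.000665 to 0.0714, changes 0.53 to 0.84, leaving out 1 array). With robust variances it was lost too (limma adjusted p = 0.0608). Without the 3 arrays with hepatocyte transcripts the change was 0.13 ± 0.13 (95% interval -0.16 to 0.41, limma adjusted p = 0.606).

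Klrd1, the gene of CD94, the shared chain of the Qa-1 receptors, was 1.57-fold higher. The Exercise arrays held 8.34, 7.61, 8.53, 8.48 and 8.58 in the order 300, 301, 306, 309 and 310. The non-Exercise arrays held 7.68, 7.77, 7.69, 7.63 and 7.52 in the order 326, 327, 329, 330 and 331. Array 300 was thus close to arrays 306, 309 and 310 for this gene, and array 301 lay inside the non-Exercise range. Means of 8.31 ± 0.40 and 7.66 ± 0.09 (SD, n = 5 each) gave a change of 0.65 ± 0.15 that passed (95% interval 0.32 to 0.98, limma adjusted p = 0.0102; exact permutation p = 0.0397, two-sided, unadjusted). Klrd1 passed in all 10 fits that left out 1 array (limma adjusted p 9.60e-05 to 0.0266). Without the 3 arrays with hepatocyte transcripts its change was 0.32 ± 0.16 (95% interval -0.03 to 0.67, limma adjusted p = 0.243), from arrays at 8.34 and 7.61.

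Klrc1, the gene of the inhibitory partner NKG2A, did not pass. It was at 6.33, 6.36, 7.11, 7.07 and 7.09 in Exercise arrays 300, 301, 306, 309 and 310, and at 6.38, 5.99, 6.41, 6.41 and 6.60 in the non-Exercise arrays from 326 to 331. The 3 arrays with hepatocyte transcripts lay within 0.04 of each other and above all others, whereas arrays 300 and 301 lay inside the non-Exercise range. The change was 0.44 ± 0.17 (95% interval 0.07 to 0.80, limma adjusted p = 0.0990). It passed without array 300 (0.55, limma adjusted p = 0.0379) or without array 301 (0.55, limma adjusted p = 0.0305), within a range of 0.0305 to 0.231 leaving out 1 array, and was -0.01 ± 0.14 without the 3 arrays (limma adjusted p = 0.967).

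Klrc2, the gene of the activating partner NKG2C, had a change near 0 made of opposite parts. Exercise arrays 306, 309 and 310 held 7.02, 7.12 and 7.08, above every non-Exercise array (6.99, 6.99, 6.99, 6.72 and 6.56 from 326 to 331). Exercise arrays 300 and 301 held 6.43 and 6.34, below every non-Exercise array. Over all arrays the change was -0.05 ± 0.16 (95% interval -0.39 to 0.29, limma adjusted p = 0.901), 0.00 in the table as deposited, and positive without array 300 (0.04) or 301 (0.06). Without the 3 arrays Klrc2 fell by 0.46 on the log2 scale, with an SE of 0.14 (limma adjusted p = 0.0459), a fit of 2 against 5 arrays in which 16.8% of all genes had both Exercise values below all non-Exercise values and 11.7% had both above. Klrc1 and Klrc2 are close in sequence, and whether their probe sets tell them apart was not tested.

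**Figure D2:**
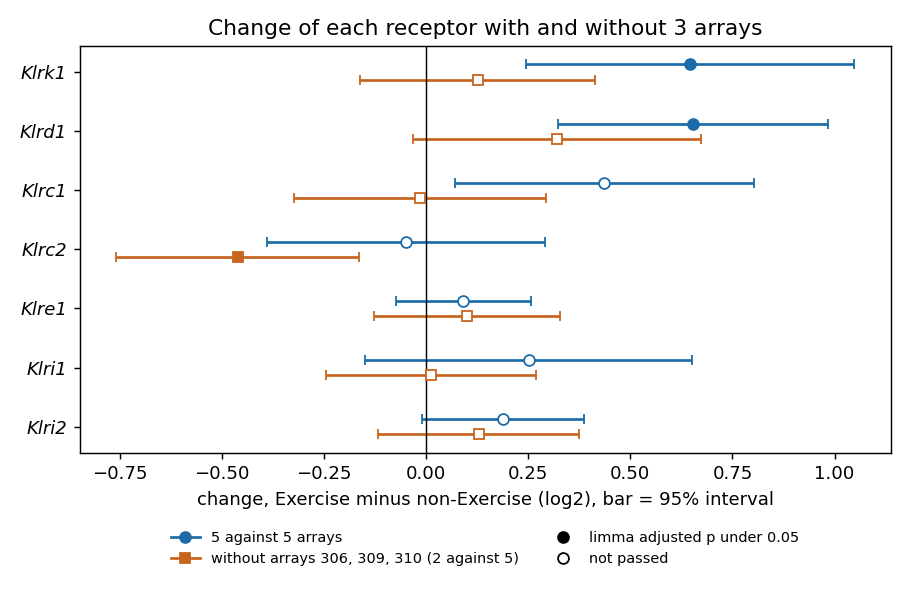
Change of each receptor gene (log2, Exercise minus non-Exercise) with its 95% interval, over all 10 arrays (blue circles) and without arrays 306, 309 and 310 (orange squares); filled symbols passed the limma test. Klrk1 and Klrd1 pass over all arrays (0.65 each), and Klrc2 alone passes without the 3 arrays (-0.46).

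Klre1, the gene of the shared chain of the KLRE/KLRI receptors, was nearly level. Its 5 Exercise values lay between 9.10 and 9.22 with a median of 9.21, inside the non-Exercise range of 8.92 to 9.29. The highest level of all 10 was in non-Exercise array 330. With means of 9.18 ± 0.05 and 9.09 ± 0.14 (SD, n = 5 each) the change was 0.09 ± 0.08 (95% interval -0.07 to 0.26, limma adjusted p = 0.509). Its interval leaves out measured changes as large as those of Klrk1 and Klrd1. How closely each probe set follows its transcript was not tested. Without the 3 arrays it was 0.10 ± 0.11 (limma adjusted p = 0.609).

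Klri1, the gene of the inhibitory KLRI chain, was set apart by 1 array. Exercise array 310 held 8.17, and Exercise arrays 300, 301, 306 and 309 held 7.16, 6.96, 6.96 and 7.24. The non-Exercise arrays from 326 to 331 held 7.11, 6.84, 7.12, 7.10 and 7.06. Apart from array 310 the groups overlapped over most of their range. The change of 0.25 ± 0.19 did not pass (95% interval -0.15 to 0.65, limma adjusted p = 0.437); it was 0.03 without array 310 and 0.01 ± 0.12 without the 3 arrays (limma adjusted p = 0.968).

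Klri2, the gene of the activating KLRI chain, was at 7.02, 6.90, 6.96, 7.28 and 6.93 in Exercise arrays 300, 301, 306, 309 and 310. Across non-Exercise arrays 326 to 331 it was at 6.78, 6.70, 6.98, 6.80 and 6.89. Array 309 was highest and non-Exercise array 329 lay above 3 of the Exercise arrays, so the groups overlapped. The change of 0.19 ± 0.09 did not pass (95% interval -0.01 to 0.39, limma adjusted p = 0.196), while its unadjusted exact permutation p was 0.0476. Without the 3 arrays the change was 0.13 ± 0.11 (limma adjusted p = 0.529).

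Across the family the arrays did not rank alike. Array 309 was among the 3 highest for 6 of the 7 genes, and arrays 306 and 310 for 5 each. Klrk1, Klrd1, Klrc1 and Klrc2 each had arrays 306, 309 and 310 above all other 7 arrays, which held for 3.79% of all genes. Array 301, also of the Exercise group, had a median rank of 8 of 10 over the 7 genes, lower than 4 of the 5 non-Exercise arrays; array 327 ranked lowest at 10. The levels of 5 of the 7 were low for this table, that of Klrd1 was moderate and that of Klre1 near the middle, with means at percentiles 2.88 (Klrc1), 4.92 (Klrc2), 5.98 (Klri2), 6.29 (Klrk1), 9.19 (Klri1), 25.3 (Klrd1) and 51.8 (Klre1) of all genes, positions that probe affinity sets as well as transcript level.

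Whether members of the family changed by unequal amounts was tested on their difference within each array, for 3 pairs (CD94 with NKG2D, and the inhibitory with the activating gene of the Klrc and Klri genes), with exact permutation p-values adjusted over the 3. For Klrd1 and Klrk1, CD94 and NKG2D, the difference in change was 0.01 (exact permutation p = 0.905, adjusted p = 1). The within-array difference was 1.04 ± 0.22 with exercise and 1.03 ± 0.10 without (SD, n = 5 each), lowest in array 309 at 0.75 and highest in array 300 at 1.34. That small difference changed sign without array 300, 301, 306, 326 or 331 (-0.07 to 0.08 leaving out 1 array), and was 0.19 without the 3 arrays with hepatocyte transcripts (exact permutation p adjusted over the pairs = 0.214). With 2 against 5 arrays the unadjusted exact permutation p cannot be under 0.0476. Adjusted over the pairs it could hardly pass, so without the 3 arrays the test decides nothing for any pair.

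Inhibitory Klrc1 had a change 0.49 above that of activating Klrc2 (exact permutation p = 0.0397, adjusted p = 0.119). Their within-array difference lay between -0.10 and 0.09 in the 5 Exercise arrays, the 3 with hepatocyte transcripts included. In the non-Exercise arrays it was -0.61, -0.99, -0.58, -0.31 and 0.04 from 326 to 331. Only array 331 of the non-Exercise group overlapped the Exercise arrays, and without it the difference in change was 0.62 (exact permutation p adjusted over the pairs = 0.0238, within a range of 0.0238 to 0.238 leaving out 1 array). Leaving out the only overlapping array separated the groups, and the exact permutation p took the smallest value that the splits allow. Nothing is concluded from that pass. On the 7 arrays low in hepatocyte transcripts the difference in change was 0.45 (exact permutation p adjusted over the pairs = 0.238), with too few splits to decide. For Klri1 and Klri2 the difference in change was 0.06 (exact permutation p = 1, adjusted p = 1). It rested on array 310, whose within-array difference was 1.25. Without that array the value was -0.18 (exact permutation p adjusted over the pairs = 0.0238, within a range of 0.0238 to 1). Here too the groups were then separated and the p was the smallest that the splits allow, so nothing is concluded from it. Without the 3 arrays the difference in change was -0.12 (adjusted exact permutation p = 0.214).

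**Figure D3:**
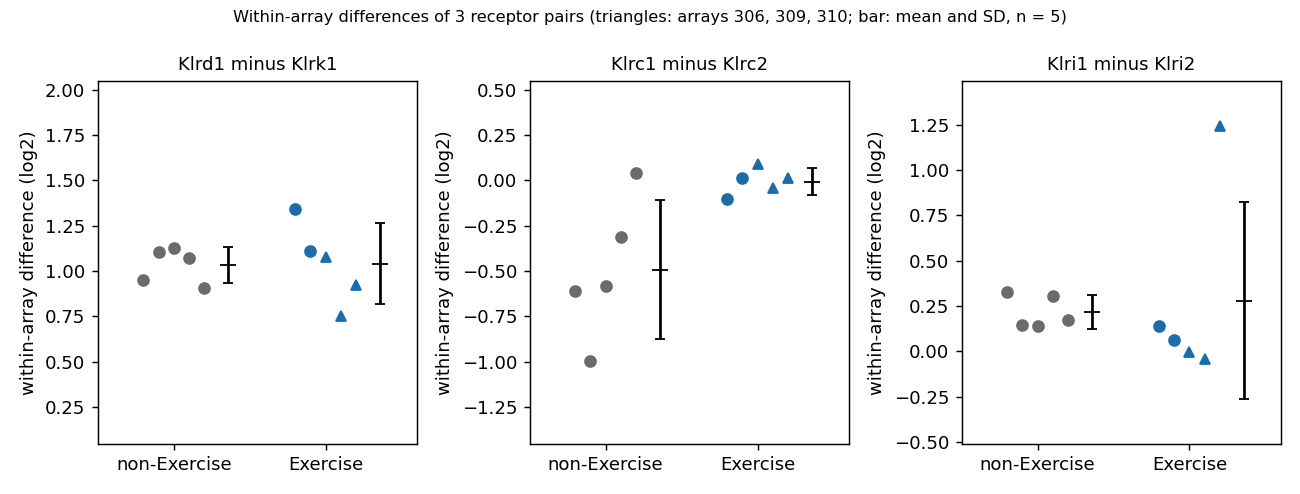
Within-array difference (log2, vertical axes spanning 2 units each) of 3 receptor pairs in non-Exercise (grey) and Exercise (blue) arrays, with mean and SD; triangles are arrays 306, 309 and 310. For Klrc1 minus Klrc2 the Exercise arrays lie between -0.10 and 0.09 and 4 of the 5 non-Exercise arrays lie below them; for Klri1 minus Klri2 array 310 lies at 1.25.

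The adaptors of the receptors differed from each other. Tyrobp, the gene of DAP12, which serves NKG2D, NKG2C and many myeloid receptors, was at 10.57, 9.75, 10.11, 10.99 and 11.16 in Exercise arrays 300, 301, 306, 309 and 310. The non-Exercise arrays lay between 8.87 and 9.50, below every Exercise array, and Tyrobp rose by 1.23 ± 0.22 (limma adjusted p = 0.00210) and by 0.87 without the 3 arrays (limma adjusted p = 0.0122). Hcst, the gene of DAP10, ranged from 8.20 to 8.46 with exercise and from 8.24 to 8.56 without, with a change of 0.00 ± 0.09 (95% interval -0.19 to 0.19, limma adjusted p = 0.987) and of -0.02 without the 3 arrays.

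Of 18 measured genes of the adaptors and signalling proteins to which these receptors are coupled, 7 rose and 2 fell, with a median change of 0.09. Among all genes, 6.35% rose and 10.6% fell. Plcg1, a phospholipase of receptor signalling, fell by 0.31 on the log2 scale (limma adjusted p = 0.000667), and by 0.29 without the 3 arrays (limma adjusted p = 0.00902). Inpp5d, the inhibitory phosphatase SHIP1, rose by 0.98 ± 0.20 (limma adjusted p = 0.00502), and by 0.61 without the 3 arrays (limma adjusted p = 0.0452). Lat2, an adaptor of leukocyte signalling, rose by 0.63 ± 0.13 (limma adjusted p = 0.00534). In the fit without the 3 arrays 2 rose and 3 fell, and Lat2 did not pass (0.45, limma adjusted p = 0.0502). Ptpn6, another phosphatase gene of the list, was among those that fell there (-0.39, limma adjusted p = 0.00545). Over all arrays its change was -0.10 (limma adjusted p = 0.616). The count of 2 lower genes was 1 without non-Exercise array 327 or 329.

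Most of these signalling genes act in other leukocytes as well, and Tyrobp, Syk, Inpp5d and Lat2 are also made by macrophages. Of 9 measured macrophage markers, among them Itgam, Cd68 and Adgre1, 8 rose and 0 fell, with a median change of 0.97, and for 5 of them the groups did not overlap. The mean log2 level of the list was 9.94 to 11.10 in the Exercise and 9.17 to 9.76 in the non-Exercise arrays. Of the 9, 6 rose without the 3 arrays, with a median change of 0.72, and 7 to 9 rose leaving out 1 array. The part of macrophages in the levels of the signalling genes was not tested.

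Few ligand genes were measured. For NKG2D these were Raet1d, with a change of -0.15 ± 0.08 (limma adjusted p = 0.202), and H60b, with -0.46 ± 0.16 (limma adjusted p = 0.0579), or -0.13 and -0.53 without the 3 arrays; H60b lay between 7.78 and 8.0 in the Exercise and between 7.80 and 8.80 in the non-Exercise group. The other 7 listed NKG2D ligands, and H2-T23, which encodes Qa-1, were not analysed here. Of 5 genes of class I assembly on which Qa-1 loading depends, 0 passed, with changes from 0.24 (B2m) to 1.03 (Tap1), and for all 5 of them the 3 arrays with hepatocyte transcripts lay above all others. Without those arrays the median change of the 5 was -0.12.

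Among 25 other lectin receptor genes of the same gene complex, 8 rose and 0 fell, with a median change of 0.23. Clec2d, a ligand of the Nkrp1 receptors, rose by 1.75 ± 0.25 (limma adjusted p = 0.000474), and its relative Clec2g by 0.80 ± 0.17 (limma adjusted p = 0.00601). Both also rose without the 3 arrays, Clec2d by 1.13 (limma adjusted p = 0.00200) and Clec2g by 0.41 (limma adjusted p = 0.0439). Of the Ly49 genes, Klra17 rose by 0.71 ± 0.17 (limma adjusted p = 0.0109) and Klra2 by 1.01 ± 0.27 (limma adjusted p = 0.0207). The call of Klra2 was lost without non-Exercise array 330 (limma adjusted p = 0.0513) and with robust variances (limma adjusted p = 0.0872). The other Ly49 genes measured, Klra3 (0.21), Klra5 (-0.05), Klra6 (0.04) and Klra8 (0.19), did not pass (limma adjusted p 0.207 to 0.875). Klrb1b, Cd69, Clec12a and Clec7a of the list also rose. Macrophage markers rose as well, 8 of the 9 measured. Which cells made these lectin receptor transcripts was not tested, so their rises are not read as rises of NK cell receptors. The count of lectin receptor genes that rose was 3 without the 3 arrays, where Klra17 (0.25) and Klra2 (0.34) did not pass, and 3 to 9 leaving out 1 array, with 5 or fewer without array 309, 310, 327, 329, 330 or 331.

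Of 18 measured markers of NK cells outside the receptor family, 2 rose (Il2rb and the SLAM family receptor gene Cd244a) and 0 fell. The share of all genes that rose was 6.35%. In all, 17 of the 18 changes were positive, with a median of 0.23. The mean log2 level of the list was 7.70 to 7.98 in arrays 306, 309 and 310 and 7.64 to 7.73 in arrays 300 and 301. It was 7.48 to 7.56 in the non-Exercise arrays, below every Exercise array. Without arrays 306, 309 and 310 the median change of the list was 0.12. Ncr1, the gene of the NK receptor NKp46, read 7.13, 6.58, 6.71, 7.38 and 7.19 in Exercise arrays 300, 301, 306, 309 and 310, against 6.47 to 6.90 in the non-Exercise group, a change of 0.39 ± 0.14 (limma adjusted p = 0.0845). Klrb1c, which encodes NK1.1, changed by 0.25 ± 0.11 (limma adjusted p = 0.124), and the NK lineage factors Tbx21 by 0.31 ± 0.10 (limma adjusted p = 0.0559) and Eomes by 0.09 ± 0.11 (limma adjusted p = 0.673). These changes became 0.24 for Ncr1, 0.32 for Klrb1c, 0.15 for Tbx21 and -0.02 for Eomes without the 3 arrays. Arrays 306, 309 and 310 stood together above all others for 3 of the 18 markers, Il2rb, the perforin gene Prf1 and the kinase gene Txk, and not for these 4. Il2rb, the interleukin-2 receptor chain shared by NK and T cells, rose by 0.78 ± 0.24 (limma adjusted p = 0.0378), not without array 306, 309, 310, 327, 329, 330 or 331 (limma adjusted p to 0.0915), with robust variances (0.118), with array weights (0.0639) or without the trend (0.0539), and had a change of 0.09 without the 3 arrays. Cd244a rose by 0.89 (limma adjusted p = 0.000845) and by 0.64 without the 3 arrays (limma adjusted p = 0.00612). The count of NK markers that rose was 1 without the 3 arrays and 1 to 5 leaving out 1 array, differing by over 1.5 times without array 301, 306, 309, 310, 327, 329, 330 or 331.

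T cell and leukocyte markers were set beside the receptors because T cells also carry several of them. Of 14 T cell genes 1 rose (Thy1, also made by other cells) and 0 fell, where 6.35% of all genes rose. For 5 of the 14 genes, arrays 306, 309 and 310 lay above all others, which held for 3.79% of all genes. Thy1 rose by 0.57 (limma adjusted p = 0.0341), not with robust variances (limma adjusted p = 0.0936), without the trend (limma adjusted p = 0.0505), without array 300, 309, 310, 326, 329 or 330 (limma adjusted p to 0.0890), or without the 3 arrays (0.43, limma adjusted p = 0.122). Cd3e, a chain of the T cell receptor complex, differed by 0.38 ± 0.27 (limma adjusted p = 0.405), and Cd8a, the CD8 coreceptor, by 0.30 ± 0.13 (limma adjusted p = 0.140). Both differences were negative without the 3 arrays, -0.41 for Cd3e (limma adjusted p = 0.125) and -0.04 for Cd8a (limma adjusted p = 0.854). The count was 0 without the 3 arrays and 0 to 5 leaving out 1 array, with 0 without array 309, 310, 326, 329 or 330 and more than 1 without array 301. The mean log2 level of the T cell list was 8.31 to 8.36 in the 3 arrays, 7.80 to 7.93 in arrays 300 and 301, and 7.80 to 7.99 in the non-Exercise arrays. Ptprc, the gene of the pan-leukocyte protein CD45, was at 10.32, 9.06, 10.03, 10.84 and 10.88 in Exercise arrays 300, 301, 306, 309 and 310 and between 8.79 and 9.34 in the non-Exercise arrays; it rose by 1.16 ± 0.27 (limma adjusted p = 0.00921) and had a change of 0.62 without the 3 arrays that did not pass (limma adjusted p = 0.132); with robust variances its call was lost too (limma adjusted p = 0.0554). As for Klrd1, array 301 was the Exercise array inside the non-Exercise range. The part of T cells or of leukocytes as a whole in the receptor levels was not tested.

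**Figure D4:**
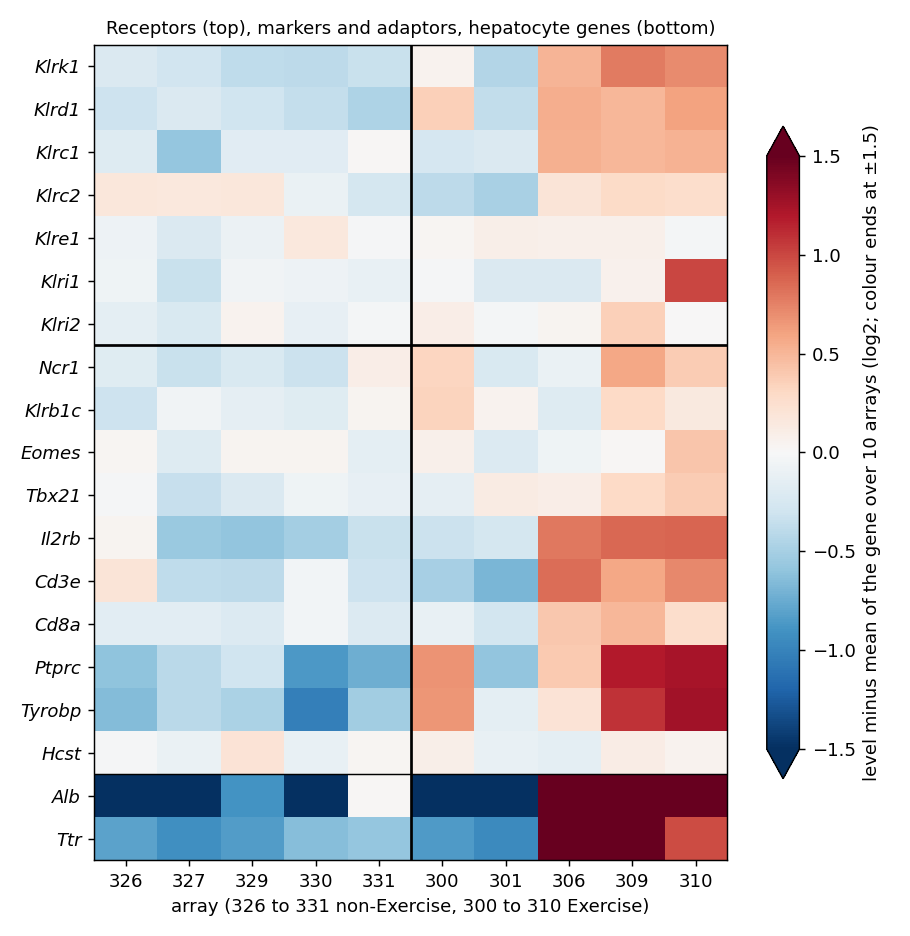
Level of each gene minus its mean over the 10 arrays (log2, colour scale ending at 1.5 in each direction) for the 7 receptor genes, NK, T cell and leukocyte markers, both adaptors and 2 hepatocyte genes; columns are arrays, non-Exercise to the left of the line. Arrays 306, 309 and 310 are high in Klrk1, Klrd1, Klrc1, Cd3e, Il2rb, Alb and Ttr, and array 301 is low or near the mean for most genes.

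For the 4 receptor genes whose levels ranged over at least 1 unit, the 3 genes with the most similar centred profiles over the 10 arrays were found by the root-mean-square (RMS) difference, which describes likeness in these arrays only. Nearest to Klrk1 were Unc93b1, a chaperone of nucleic acid-sensing Toll-like receptors (0.08), Trafd1 (0.10) and P2ry14, a nucleotide sugar receptor (0.10), where Klrk1 itself had an SD of 0.49 over the arrays. Nearest to Klrd1 were Il15ra, which presents interleukin-15 to NK and T cells (0.11), the growth factor gene Hgf (0.11) and the kinase gene Ptk2b (0.13). Nearest to Klrc1 were Itih3 and Serpinf2, which encode plasma proteins made by liver (0.13 and 0.14), and Icos, a T cell costimulator (0.13). Nearest to Klri1 were Slc7a10, Sema5a and Bcl2l14 (0.15, 0.15 and 0.16). For the 3 genes nearest to Klrk1, the 3 nearest to Klrc1, Il15ra and Ptk2b, arrays 306, 309 and 310 lay above the other 7 arrays. For Hgf and the 3 genes nearest to Klri1 they did not. Genes picked for likeness to a profile high in these arrays tend to share that pattern, so this is no separate result.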

How the data were processed

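The authors deposited 1 log2-scale value per probe set and array, summarised with PLIER per the submitters' processing notes; the sources used here give neither its version nor the log base, an added constant or a normalization between arrays, and log2 was taken from the range, 4.66 to 14.55. Array medians differed by 0.126, above the limit of 0.1 set for it, so quantile normalization was applied (limma 3.58.1, R 4.3.3). Of 35556 probe sets 21789 had 1 platform symbol, 1621 several and 12146 none listed here; names were updated by Entrez identifier through GRCm38.p6 (21698 matched). Genes with more than 1 probe set were represented by their brightest, leaving 19938 genes. No dim gene was filtered out.

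Groups came from the titles. Tests were two-sided, from lmFit and eBayes with the trend option, Benjamini-Hochberg over all genes at 0.05; the code was tested on simulated data. Single values were compared by exact permutation over all splits of the arrays. The members and lists were chosen with earlier results of these data known. Named are all members, fixed adaptor, ligand and marker genes, up to 4 called genes with the smallest p per pathway list, and the 3 nearest profiles per member ranging over at least 1, passing over predicted and clone names. Some further genes of the lists are named beside these. Scan dates were not used here, so no batch was tested. Other settings were the table as deposited, median centring, the mean of probe sets, every probe set fitted alone, a filter on genes under the 25th percentile, eBayes without the trend or robust, array weights, and leaving out each array. Leaving out arrays 306, 309 and 310, and applying these settings to genes other than the 7, was chosen after seeing the data. Figures used Python 3.11.15 and matplotlib 3.10.9.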

Additional observations from a re-analysis of the deposited data

Results flagged for a closer look

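In groups of 5, an array was singled out where its gap to the nearest array exceeded 0.710 of the range of the group, which chance does in about 5% of groups; it happened in 4 of 42 groups looked at. Klrd1 was low in Exercise array 301 at 7.61, with the nearest Exercise array at 8.34. Klri1 was high in Exercise array 310 at 8.17, with the nearest at 7.24, and low in non-Exercise array 327 at 6.84, with the nearest at 7.06. Cd8a was high in non-Exercise array 330 at 7.81, with the nearest at 7.69. The cause of these values was not tested.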

How the results depend on the processing

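Of 230 recomputed values for the 7 genes, their counts and the 3 pairs, 189 kept their direction and their side of the threshold or, for a count, stayed within 1.5 times of it. The 2 receptor genes that rose were 1 with robust variances, where Klrk1 was lost, 1 of the 2 genes left when dim genes were removed (Klrd1 and Klre1; the other 5 were filtered out, so no pair was computed), and 1 to 3 leaving out 1 array. Without arrays 306, 309 and 310 they were 0, with 1 lower gene. Receptor genes without overlap were 0 to 2 leaving out 1 array, with 2 without array 301 and 1 without array 329. The share over all genes is not given here for the fits that left out 1 array, so these counts are not read further. Klrc1 was -0.015 without the 3 arrays, and Klrc2 0.00014 as deposited and -0.13 to 0.065 leaving out 1 array. The pair Klrd1 and Klrk1 ranged from -0.067 to 0.081 leaving out 1 array, Klrc1 and Klrc2 from 0.36 to 0.62, and Klri1 and Klri2 from -0.18 to 0.14, with -0.12 without the 3 arrays. Signalling genes that rose were 7 to 8 and those that fell 1 to 2 leaving out 1 array, with 2 risen without the 3 arrays. Lectin neighbours that rose were 4 with robust variances, 3 without the 3 arrays and 3 to 9 leaving out 1 array. NK markers that rose were 4 as deposited, 2 of 6 without dim genes, 1 without the trend, 1 without the 3 arrays and 1 to 5 leaving out 1 array. T cell genes that rose were 0 without the trend, with robust variances and without the 3 arrays, and 0 to 5 leaving out 1 array; 1 fell with array weights and 1 without the 3 arrays. Over all genes 938 rose and 3076 fell with arrays centred on medians, against 1266 and 2118. Apart from fewer genes or arrays entering a fit, the cause of these differences was not tested. No paired analysis was possible because the groups share no replicate number. Of the 7 genes, 5 had mean values under percentile 25 of the table, and the number of arrays limits the precision.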
